A study of Mus musculus with 4 samples.

Results

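The 9 genes described here, *Dux*, *Tcstv3*, *Usp17la*, *Usp17lb*, *Usp17lc*, *Usp17le*, *Zfp352*, *Eif1a* and *Arg2*, form a list drawn up for the 2-cell-like state of mouse embryonic stem cells (ESCs). They were taken by name from the 9936 genes of the deposited tables. The measurements are RNA-seq expression levels of LF2 cells, a female mouse ESC line of 129/J origin, in 4 libraries with 1 library per condition. All cells were cultured for 24 hr with 1 agent or vehicle from each of 2 pairs: ascorbic acid (AA, vitamin C) at 50 µg/ml or its vehicle PBS, and GSK-J4 at 10 µM or its vehicle DMSO. GSK-J4 enters cells and inhibits histone demethylases of the JmjC-domain class, among them the H3K27 demethylases, and AA is a cofactor of these enzymes. The conditions are called PBS+DMSO, PBS+GSK-J4, AA+DMSO and AA+GSK-J4. The line is kept on feeder cells and was passaged without them before the culture.

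The 2-cell-like state is a rare and reversible state of cultured ESCs in which genes of the 2-cell embryo, the stage at which the mouse genome is first transcribed broadly, are switched on. *Dux* encodes a double homeodomain transcription factor that activates this programme, together with the endogenous retrovirus MERVL, whose long terminal repeats serve as alternative promoters for many of its genes. Because few cells of a culture are in the state at any time, its genes have low levels in RNA from whole cultures. In such bulk RNA, more cells in the state and more RNA per cell cannot be told apart.

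The regulatory sequence of 4 of the 9 genes, *Usp17la*, *Usp17lb*, *Usp17lc* and *Zfp352*, could be read from RefSeq promoter windows of the mouse build GRCm38.p6, which reach from 250 bases before the annotated start to 50 after it. The stretches of the 3 *Usp17l* genes, which lie on chromosome 7, are shown because they are much alike, apart from the first bases of the *Usp17lb* line. The genes differ in their values across the libraries. Capitals mark the longest run of bases that the 3 windows share, 29 bases, and each line is 5′ to 3′ on the strand of the gene. The *Usp17la* line is chr7:104856815-104856993 (plus strand), the *Usp17lb* line is chr7:104842591-104842769 (minus strand) and the *Usp17lc* line is chr7:103416453-103416631 (plus strand).
Usp17la: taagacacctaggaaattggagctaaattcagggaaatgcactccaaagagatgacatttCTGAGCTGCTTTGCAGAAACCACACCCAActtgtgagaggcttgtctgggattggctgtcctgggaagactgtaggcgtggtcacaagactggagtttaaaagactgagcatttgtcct
Usp17lb: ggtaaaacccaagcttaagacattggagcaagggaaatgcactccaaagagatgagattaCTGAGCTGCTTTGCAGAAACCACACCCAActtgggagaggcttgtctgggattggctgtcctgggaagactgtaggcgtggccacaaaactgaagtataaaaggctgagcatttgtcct
Usp17lc: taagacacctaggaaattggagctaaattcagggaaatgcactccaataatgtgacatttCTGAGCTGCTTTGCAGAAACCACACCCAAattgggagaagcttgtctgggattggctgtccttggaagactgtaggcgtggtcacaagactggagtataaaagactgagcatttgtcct
Over the aligned bases of the 300-base windows, with gaps left out, *Usp17la* and *Usp17lc* were 95.3% identical, *Usp17la* and *Usp17lb* 93.0%, and *Usp17lb* and *Usp17lc* 91.4%. The aligned bases were 257, 270 and 243 in the same order, so the unaligned rest is not in these shares. The letters TATAAAA, searched on both strands, occurred once each in the windows of *Usp17lb* and *Usp17lc* and not in that of *Usp17la*. They occurred in 5.48% of all 32851 promoter windows.

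The upstream sequence of *Zfp352* (chr4:90218570-90218819, plus strand, GRCm38.p6) is shown for its tandem repeat. Capitals mark the 6 letters TAATCC, which were searched for after the repeat was seen.
Zfp352: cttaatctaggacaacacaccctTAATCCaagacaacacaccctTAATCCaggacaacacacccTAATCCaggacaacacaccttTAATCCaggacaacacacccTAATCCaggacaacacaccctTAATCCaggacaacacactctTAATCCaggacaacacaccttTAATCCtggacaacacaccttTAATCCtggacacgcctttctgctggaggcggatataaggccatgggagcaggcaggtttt
The 9 copies start between 227 and 61 bases before the annotated start, at steps of 20 or 21 bases. Of the 32851 windows, searched on both strands, only 1 held 9 copies or more, that of *Zfp352* itself, which is 0.00304% of them. A match of letters is a description of the sequence and says nothing of a bound factor.

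Most of the values lay near the floor. Levels are given as FPKM, fragments per kilobase of transcript scaled to the number of mapped fragments. In PBS+DMSO the median of the 9 genes was 0.754 FPKM, against 8.23 FPKM over all 9779 genes without a failed estimate. In that library 6 of the 9 genes were below 1 FPKM, which was so for 11.6% of all genes. The numbers below 1 FPKM were 2 of 9 in PBS+GSK-J4, 6 of 9 in AA+DMSO and 5 of 9 in AA+GSK-J4. Only *Eif1a* was strongly expressed in every library. The 32 values of the other 8 genes lay between 0.382 and 5.24 FPKM, with 19 of them below 1 and 27 below 2. The sum over these 8 genes was 7.66 FPKM with PBS+DMSO against 13.4 with PBS+GSK-J4 and, when AA was given, 8.73 with DMSO against 10.3 with GSK-J4, so it was highest in the library with GSK-J4 and no AA.

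**Figure D1:**
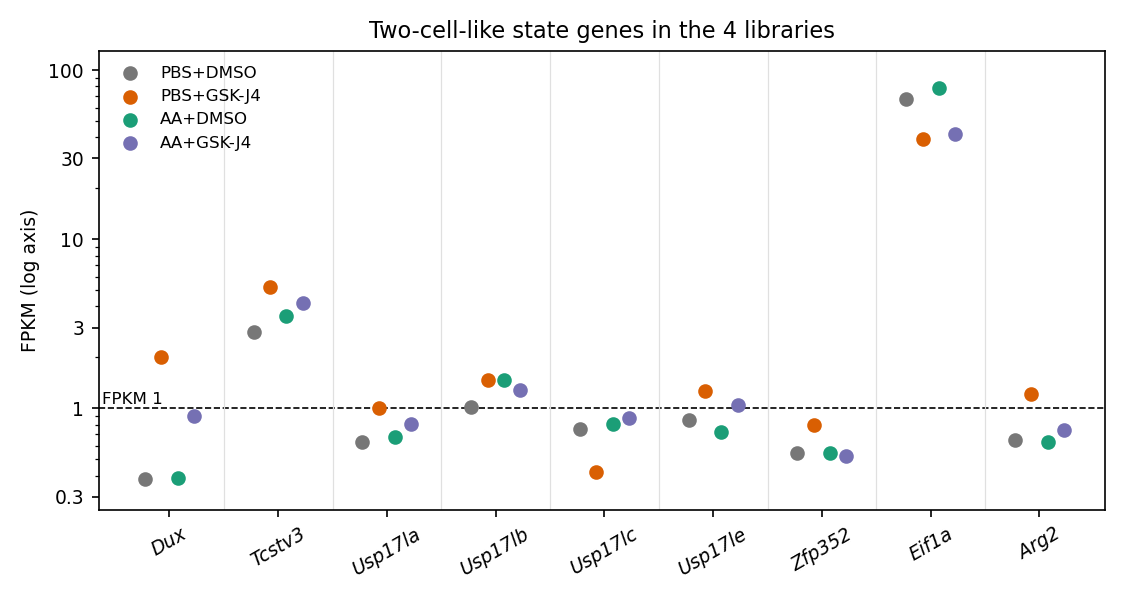
FPKM (log axis) of the 9 genes in the 4 libraries, each point 1 library and the dashed line 1 FPKM. *Eif1a* lies between 39.3 and 78.3 FPKM and the other 8 genes between 0.382 and 5.24; *Dux* is at 2.02 in PBS+GSK-J4 and at 0.904 or below in the other libraries.

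With 1 library per condition there are no replicates of a condition and no test was run, and every difference below is one between libraries. For 6 of the 9 genes the values had steps that gave back whole read numbers. These are the smallest whole numbers that fit, and the true ones may be a common multiple of them. Over the 879 low genes with whole reads, 46.1 to 51.2% of the read numbers were even, depending on the library. Another factor between the libraries would change the read numbers and the intervals, but not the FPKM or their ratios. From them, a 95% exact (Clopper-Pearson) interval of the ratio of FPKM was computed. It covers counting error only, reads are not independent molecules, and no spread between cultures is in it. No such interval could be had for *Usp17lc*, *Usp17le* and *Eif1a*. Relative to PBS+DMSO, the reads behind 1 FPKM of a gene were 1.28 times as many in PBS+GSK-J4, 0.795 times in AA+DMSO and 1.05 times in AA+GSK-J4.

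*Dux*, the transcription factor of the programme, had 0.382 FPKM with PBS+DMSO against 2.02 with PBS+GSK-J4 and, when AA was given, 0.387 with DMSO against 0.904 with GSK-J4. The 2 DMSO libraries were nearly level and both GSK-J4 libraries were above them, the one without AA the most. The smallest whole read numbers were 31, 210, 25 and 77 in the same order. Without AA the level with GSK-J4 was 5.28 times that with DMSO (95% counting interval 3.61 to 7.97). With AA it was 2.34 times (1.47 to 3.83). The fold with AA was 0.442 times the fold without AA (0.236 to 0.837), so on counting error alone the GSK-J4 difference was smaller with AA. On the scale log2 of (FPKM + 1), which shrinks differences of low genes, the GSK-J4 difference of *Dux* was 1.13 without AA and 0.46 with AA.

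A gene was called here when it had at least 1 FPKM in either library compared and differed by at least 2-fold in FPKM + 1. Of the 9 genes, 7 reached 1 FPKM in the comparison of GSK-J4 with DMSO without AA, and *Dux* alone was called, as higher. *Dux* and 3 others, *Usp17la*, *Usp17le* and *Arg2*, reached 1 FPKM in PBS+GSK-J4 alone, the library where they were higher, and with 1 FPKM asked of both libraries no member was called. Over all 9196 genes at this level, 4.96% were called higher and 3.50% lower. *Dux* held rank 343 of the 9196 from the highest difference. Among the 3675 genes with a mean level between 0.3 and 5 FPKM, a range set after the levels of the members were known, 210 genes (5.71%) had a difference as high as *Dux* or higher. The middle 95% of these low genes ran from -0.97 to 1.46, a range that holds *Dux*. With AA, *Dux* was below 1 FPKM in both libraries and was not tested against the threshold. Of the 9 genes, 4 reached 1 FPKM there and none was called in either direction, while 4.13% of 9139 genes were called higher and 3.38% lower.

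*Tcstv3*, named for its variable transcription at the 2-cell stage, had 2.84 FPKM with PBS+DMSO against 5.24 with PBS+GSK-J4 and, when AA was given, 3.50 with DMSO against 4.17 with GSK-J4. It had the highest levels of the 8 weak genes, and as in *Dux* both GSK-J4 libraries were above both DMSO libraries. Without AA the ratio of GSK-J4 to DMSO was 1.84 (95% counting interval 1.44 to 2.38). With AA it was 1.19 (0.910 to 1.57), an interval that includes no difference. The fold with AA was 0.646 times that without AA (0.445 to 0.939).

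The *Usp17l* genes encode deubiquitinating enzymes, first described as cytokine-induced in blood cells, and *Usp17la*, *Usp17lb* and *Usp17le* lie within 95.1 kb of each other on chromosome 7. *Usp17la* had 0.628 FPKM with PBS+DMSO against 1.002 with PBS+GSK-J4 and, when AA was given, 0.680 with DMSO against 0.811 with GSK-J4. Its GSK-J4 to DMSO ratio was 1.60 without AA (1.18 to 2.18) and 1.19 with AA (0.843 to 1.697). The order of its 4 libraries was that of *Tcstv3* and *Dux*. *Usp17lb* had 1.01, 1.47, 1.47 and 1.28 FPKM in the same order of libraries. Its ratio was 1.45 without AA (1.08 to 1.96) and 0.868 with AA (0.640 to 1.18). PBS+DMSO was thus its lowest library, and the other 3 differed little.

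*Usp17le* had 0.848 FPKM with PBS+DMSO against 1.27 with PBS+GSK-J4 and, when AA was given, 0.720 with DMSO against 1.04 with GSK-J4, so both GSK-J4 libraries were higher, by ratios of 1.498 without AA and 1.45 with AA. *Usp17lc* had 0.754, 0.419, 0.805 and 0.874 FPKM. It went the other way from its relatives, with PBS+GSK-J4 as its lowest library. Its ratio of GSK-J4 to DMSO was 0.555 without AA and 1.09 with AA. Neither gene has a counting interval, so their ratios stand without an error.

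*Zfp352*, a zinc finger gene of the 2-cell embryo, had 0.545 FPKM with PBS+DMSO against 0.795 with PBS+GSK-J4 and, when AA was given, 0.545 with DMSO against 0.520 with GSK-J4. PBS+GSK-J4 was above the other 3 libraries, which were nearly level. The ratio of GSK-J4 to DMSO was 1.46 without AA (0.976 to 2.21) and 0.954 with AA (0.580 to 1.58), and both intervals include no difference. *Arg2*, the mitochondrial arginase that splits arginine into ornithine and urea, had 0.651 FPKM with PBS+DMSO against 1.21 with PBS+GSK-J4 and, when AA was given, 0.630 with DMSO against 0.741 with GSK-J4. Its ratio was 1.86 without AA (1.16 to 3.06) and 1.18 with AA (0.649 to 2.18).

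*Eif1a*, a translation initiation factor, was the gene with levels far above the floor and was lower with GSK-J4. Its levels were thus unlike the low ones described above for genes of the state. It is nevertheless counted in the medians and signs given over all 9 genes. It had 67.7 FPKM with PBS+DMSO against 39.3 with PBS+GSK-J4 and, when AA was given, 78.3 with DMSO against 41.8 with GSK-J4, so both GSK-J4 libraries were below both DMSO libraries. The ratio of GSK-J4 to DMSO was 0.580 without AA and 0.534 with AA, and on the log2 of (FPKM + 1) scale the differences were -0.77 and -0.89. Among the 1370 genes with a mean of 30 to 100 FPKM, the median difference was -0.49 without AA and -0.44 with AA. Of these genes, 22.2% were as low as *Eif1a* or lower without AA and 9.05% with AA. *Eif1ax*, its X-linked relative, had 64.5 and 33.9 FPKM without AA, and 55.2 and 32.3 with AA. *Eif1*, another initiation factor, went the other way, with 443 and 490 FPKM without AA, and 396 and 490 with AA.

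**Figure D2:**
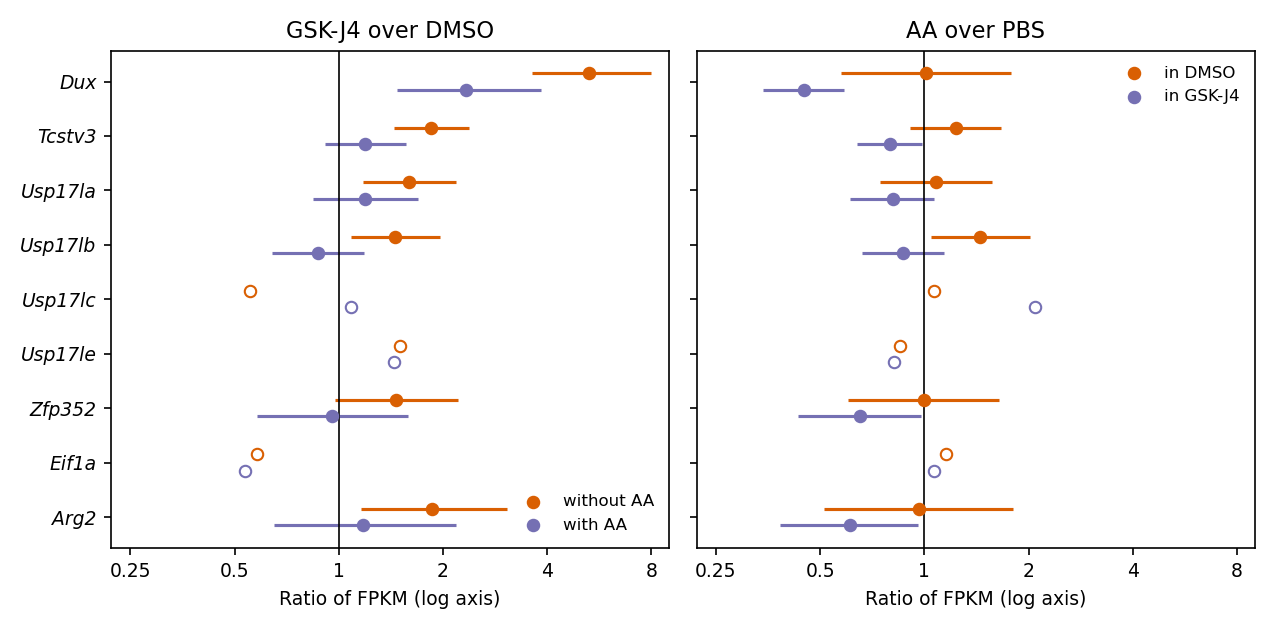
Ratio of FPKM (log axis) of each gene, left for GSK-J4 over DMSO and right for AA over PBS, with the 95% counting interval as a line; open points have no interval. Without AA, 5 of the 6 intervals of GSK-J4 over DMSO lie above 1, against 48.7% over 879 low genes; with AA only that of *Dux* does, against 43.6%.

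Over all 9 genes, the median GSK-J4 difference on the log2 of (FPKM + 1) scale was 0.30 without AA, with 7 genes above 0 and 2, *Usp17lc* and *Eif1a*, below. Over all 9196 genes at or above the floor it was -0.17, and over the 3675 low genes 0.12, where 59.8% of genes were above 0. With AA the median of the 9 genes was 0.09, with 6 above 0, and that of the low genes was 0.11. The members' median thus stood above that of low genes without AA and close to it with AA. Of the 6 genes with a counting interval, 5 had one above a ratio of 1 without AA, as had 48.7% of the 879 low genes with whole reads. With AA, *Dux* alone had one, against 43.6% of the low genes. The fold with AA divided by the fold without AA had an interval below 1 in 3 of the 6, *Dux*, *Tcstv3* and *Usp17lb*, and in 7.17% of the low genes.

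The comparisons of AA with PBS set levels across the 2 deposited tables, 1 for the libraries without AA and 1 for those with AA. How the tables were scaled to each other was not given in the sources used here, and these comparisons share their libraries with those of GSK-J4. In DMSO, *Dux* had 0.382 FPKM with PBS and 0.387 with AA, a ratio of 1.01 (0.574 to 1.77). In GSK-J4 it had 2.02 FPKM with PBS and 0.904 with AA, a ratio of 0.448 (0.341 to 0.585). The largest ratio in DMSO was that of *Usp17lb*, at 1.45 (1.04 to 2.02), and its interval alone of the 6 lay above 1, as did those of 4.78% of the low genes. In GSK-J4, 4 of the 6 intervals lay below 1, as did 22.3% of those of the low genes. Beside *Dux* these were *Tcstv3* at 0.795 (0.640 to 0.986), *Zfp352* at 0.653 (0.431 to 0.977) and *Arg2* at 0.612 (0.384 to 0.956). *Usp17lc* differed from them, with 2.09 times the level in AA.

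The comparisons of AA with PBS gave no call among the 9 genes. In DMSO 3 of them reached the floor, and 0.565% of 8843 genes were called higher and 0.735% lower. In GSK-J4 7 reached it, and 0.512% of 9180 genes were called higher and 0.599% lower. The median of the 9 genes was 0.04 in DMSO and -0.15 in GSK-J4, with 6 and 2 genes above 0. The medians over all genes at or above the floor were -0.05 and -0.02. *Dux* stood at -0.66 in GSK-J4, and 3.59% of the 3675 low genes were as low or lower. *Eif1a* stood at 0.21 in DMSO, and 1.97% of the 1370 genes near its level were as high or higher.

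The loci in the deposited tables were matched to the genes of GENCODE vM21 on the same mouse build, and it is not stated whether their first base counts from 0 or 1. *Dux* (chr10:58230671-58232775) overlaps the gene that GENCODE names *Duxf3*. *Tcstv3* lies at chr13:120316798-120318290, *Zfp352* at chr4:90218853-90225339, *Eif1a* at chr18:46597692-46610335 and *Arg2* at chr12:79130823-79172681. The *Usp17l* genes are at chr7:104857016-104862645 (*Usp17la*), chr7:104839919-104842571 (*Usp17lb*), chr7:103414962-103419486 (*Usp17lc*) and chr7:104767513-104777460 (*Usp17le*). Each gene had a single coding sequence group, the set of isoforms with the same coding sequence.

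Several of these genes have near copies, so the split of their reads is uncertain. Of the 50-base windows of the longest *Duxf3* transcript, 58.9% also occur in transcripts of other genes, most of all *AW822073* with 48.6%. The share was 44.7% for *Usp17lc*, with 41.5% in *Usp17ld*, and 31.4% for *Tcstv3*, with 19.0% in *Gm21818* and 17.9% in *Tcstv1*. It was 30.8% for *Usp17le*, 21.8% for *Usp17lb* and 20.4% for *Usp17la*. For *Arg2* it was 21.2%, of which 17.1% lies in its neighbour *Vti1b* when both strands are read. *Zfp352* and *Eif1a* were the least affected, with 7.09% and 4.05%.

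Other genes listed for the 2-cell programme did not show one direction in the FPKM as given. Of a list of 47 genes, 9 had a value, and 6 of these reached the floor in GSK-J4 against DMSO without AA. None of the 6 was called, 3 were above 0 and 3 below, and their median difference was -0.05. Among the 3 below was *Eif1ad*, with 33.3 FPKM with DMSO and 25.8 with GSK-J4, a difference of -0.36. It had the highest level of the list in every library. The split and the median thus rest in part on a gene far above the floor. *AF067061*, a relative of *Tcstv3*, had 3.90 FPKM with DMSO and 6.51 with GSK-J4. *Trim43b*, of the tripartite motif family, had 1.45 and 0.546 FPKM, a ratio of 0.376 (95% counting interval 0.269 to 0.522). With AA, 7 of the 9 reached the floor with no call, and their median was -0.29, the value of *Eif1ad* itself. In AA against PBS in DMSO 1 of 6 was called, as higher, where 0.565% of 8843 genes were. It was *Pramef8*, a PRAME family gene, with 0.983 FPKM in PBS and 3.21 in AA and no counting interval. The medians of that comparison and of AA against PBS in GSK-J4 were -0.11 and -0.10.

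Most activators and repressors of the state had lower levels with GSK-J4, as had most genes of 30 to 100 FPKM. Of those 1370 genes, 85.8% were below 0 without AA and 85.1% with AA, with medians of -0.49 and -0.44. Of 12 activators, 6 had a value and 5 reached the floor, all 5 below 0 in GSK-J4 against DMSO both without AA (median -0.73) and with AA (median -0.72), with 1 called lower in each, where 3.50% and 3.38% of all genes at the floor were. That gene was *Dppa3*, a maternal factor also on the list of naive markers, with 35.5 FPKM with PBS+DMSO against 13.2 with PBS+GSK-J4. *Yap1*, the effector of Hippo signalling, had the smallest difference of the 5 activators at the floor without AA, with 40.6 and 31.6 FPKM. Of 35 repressors, 27 reached the floor, 25 were below 0 without AA and 27 with AA, and 4 were called lower in each. Their medians were -0.59 and -0.62. The lowest was *Lin28a*, an RNA-binding protein, with 92.4 FPKM with PBS+DMSO against 24.2 with PBS+GSK-J4. *Trim28*, the corepressor that silences MERVL and other retroviruses, had 682 and 270 FPKM without AA, and 608 and 264 with AA; it is named outside the rule for named genes, after its values were seen. The same holds for the other repressors called, *Rest*, a repressor of neuronal genes, in both comparisons, *Sumo2*, a small modifier protein, without AA, and *Ehmt2*, an H3K9 methyltransferase, with AA. *Mga*, a subunit of a Polycomb complex, was the highest with 0.437 and 1.51 FPKM without AA but had 1.34 and 0.185 with AA. Its called difference in AA against PBS in GSK-J4, as lower, was the only call among activators and repressors in the comparisons of AA with PBS. In that comparison 0.599% of all genes at the floor were called lower. The medians of AA against PBS were -0.04 and -0.01 for activators and -0.09 and -0.03 for repressors, in DMSO and in GSK-J4.

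Genes of broad expression that share a family or pathway with the members had a median difference of -0.57 without AA and -0.34 with AA over 12 of 16 genes. *Usp7*, a deubiquitinase, was the only one called, as lower without AA, with 81.0 FPKM with PBS+DMSO against 35.9 with PBS+GSK-J4. Of all genes at the floor, 3.50% were called lower there. The highest was *Ass1*, argininosuccinate synthase, with 196 and 245 FPKM. In AA against PBS the medians were -0.13 in DMSO and 0.01 in GSK-J4, with no call.

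**Figure D3:**
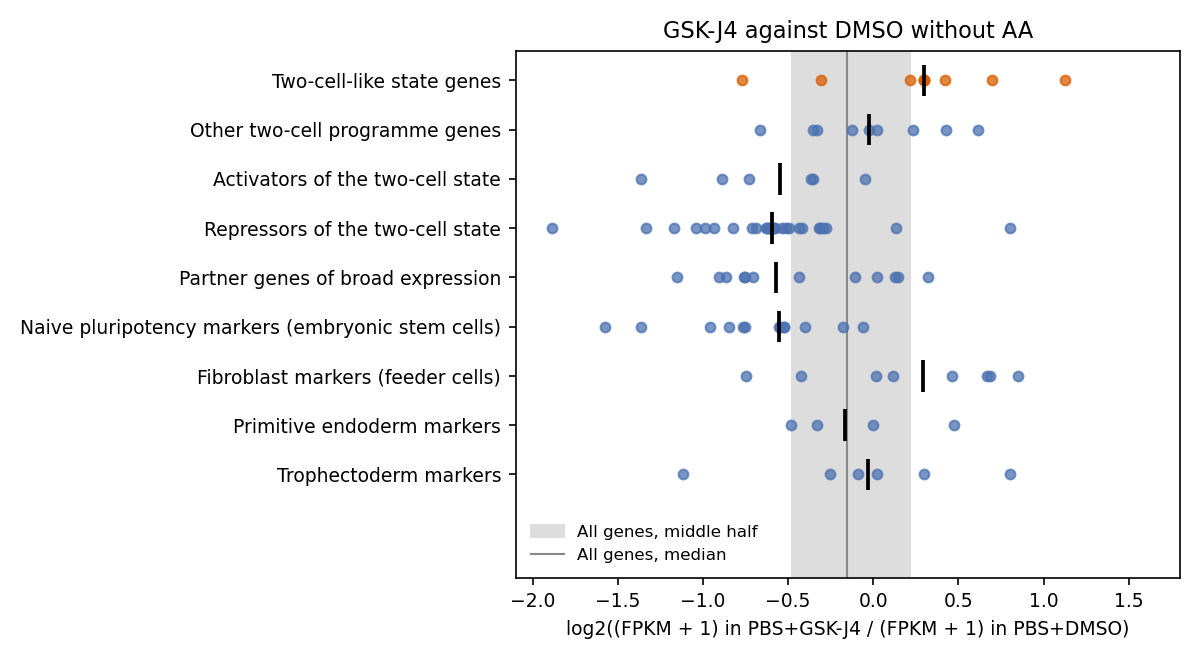
Difference of GSK-J4 against DMSO without AA, as log2 of the ratio of FPKM + 1, with no filter on low values; each point is 1 gene, the black bars are medians of each list, and the band and line are the middle 50% and the median of all 9779 genes. The 9 members have a median of 0.30, against -0.15 for all genes, -0.02 for the other 2-cell programme genes and -0.59 for repressors; over the 3675 low genes the median was 0.12.

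The cell type markers stood as follows. Of 15 naive ESC markers 13 had a value, all at 1 FPKM or more in every library, led by *Pou5f1* with 480 to 867 FPKM; the value of *Zfp42* came from a failed estimate. Their summed level was 2009 FPKM with PBS+DMSO against 1227 with PBS+GSK-J4 and, when AA was given, 1947 with DMSO against 1214 with GSK-J4. Without AA, 2 of the 13, *Utf1* and *Dppa3*, were called lower with GSK-J4 and none higher, beside 3.50% of all genes lower. Their median was -0.55, near the -0.49 of genes of 30 to 100 FPKM, and they ran from *Utf1*, a chromatin factor of ESCs, at 167 and 55.2 FPKM, to *Klf2*, a pluripotency factor, at 71.6 and 68.6. With AA the same 2 were called lower, beside 3.38% of all genes, and the median of the 13 was -0.58. In AA against PBS the medians were -0.06 in DMSO and 0.03 in GSK-J4.

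Markers of other cells were present at lower levels. The 8 of 15 fibroblast markers with a value, genes that feeder cells express, summed to between 68.1 FPKM in AA+DMSO and 85.3 FPKM in PBS+GSK-J4, none at 0 in any library. *Col1a1*, the collagen that defines the list, was at 2.83 FPKM with PBS+DMSO against 4.28 with PBS+GSK-J4 and, when AA was given, 3.24 with DMSO against 4.19 with GSK-J4. In GSK-J4 against DMSO 6 of the 8 were above 0 both without AA (median 0.29) and with AA (median 0.37), none called, from *Vim* with 34.5 and 20.1 FPKM to *Tagln* with 14.4 and 26.8 without AA. In AA against PBS their medians were -0.06 in DMSO and -0.16 in GSK-J4. Their sum was thus highest in the same library as the sum of the 8 weak members, and its part in the members' differences was not tested.

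Of 10 primitive endoderm markers 4 had a value, with sums from 7.91 to 10.8 FPKM. The 3 at the floor without AA ran from *Sox7* at 1.61 and 0.867 FPKM to *Col4a1* at 5.80 and 8.45 in PBS+DMSO and PBS+GSK-J4, with a median of -0.33, and with AA the median of 4 was -0.02. Of 11 trophectoderm markers 6 had a value, with sums from 21.5 to 27.97 FPKM. They ran from *Plac1*, at 1.77 and 0.276 FPKM, to *Ascl2* at 1.36 and 3.13 without AA, with a median of -0.03, and with AA the median of 5 was 0.26. *Plac1* was called lower, as were 3.50% of all genes at the floor. Its smallest whole read numbers were 5 and 1, which give a counting interval of its ratio of 0.0033 to 1.39. The true numbers may be a common multiple of these, and the interval would then be narrower. In PBS+DMSO, *Plac1* had 5 at 1.77 FPKM, where *Tcstv3* had 93 at 2.84 FPKM, so the interval cannot be relied on. In AA against PBS the medians in DMSO and in GSK-J4 were -0.21 and -0.19 for primitive endoderm and 0.01 and 0.17 for trophectoderm markers. *Hnf4a*, a primitive endoderm marker named after its values were seen, was called higher in GSK-J4 against DMSO with AA and in AA against PBS in GSK-J4, with 1.27 FPKM in AA+GSK-J4 and values near 0 in the libraries it was compared with. Of all genes at the floor, 4.13% and 0.512% were called higher in these comparisons.

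The genes most like each member across the 4 libraries were found by the Euclidean distance of log2(FPKM + 1), centred on each gene's mean, among 9362 other genes with at least 1 FPKM in 1 or more libraries. For *Dux* they were *Alkbh2* at a distance of 0.0778, *Tshr* at 0.113 and *Hebp2* at 0.116, and 36 genes were within 0.25 of it. *Alkbh2*, a DNA repair dioxygenase, had 0.254 FPKM with PBS+DMSO against 1.73 with PBS+GSK-J4 and, when AA was given, 0.339 with DMSO against 0.793 with GSK-J4. The other members had many more genes that near, from 356 for *Tcstv3* to 1349 for *Usp17la*. With 4 values a near pattern is common, the more so where differences are small, as the distance was not scaled for their size. The nearest were *Dbndd2*, *Ly6g6c* and *Cidea* to *Tcstv3*, from 0.0358 to 0.0514, and *Map3k10*, *Snai1* and *Nupl2* to *Usp17la*, from 0.0196 to 0.0274. *Usp17lb* had *Rin3*, *Spint2* and *Pacsin2*, from 0.00913 to 0.0492, and *Usp17le* had *Fam174a*, *Cad* and *Cby1*, from 0.0169 to 0.0291. *Arg2* had *Zkscan14*, *Armcx6* and *Gab3*, from 0.0428 to 0.0454. *Eif1a* had *Crtc2*, *Ddx58* and *Tuba4a*, from 0.0359 to 0.0485. *Usp17lc* and *Zfp352* were below 1 FPKM in all 4 libraries and were not compared. None of the 9 was among the 3 nearest genes of another.

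The summed FPKM of all 9779 genes was 360621 in PBS+DMSO and 342327 in AA+DMSO but 275575 in PBS+GSK-J4 and 271205 in AA+GSK-J4. Scaled to the same total, the median GSK-J4 difference of all genes at the floor moved from -0.17 to 0.17 without AA and, in the libraries with AA, from -0.16 to 0.14. *Eif1a* stayed below 0 and *Dux* above 0 under this scaling in both comparisons with GSK-J4, while *Usp17lb* and *Zfp352* with AA turned from below 0 to above it. The repressors had 21 of 27 below 0 under it without AA and 23 of 27 with AA, and the activators 3 of 5 in both. The median of the naive markers was then -0.18 without AA and -0.25 with AA. That of the other 2-cell programme genes turned to 0.22 without AA, with 5 genes above 0 and 1 below. With AA it stayed below 0, at -0.03, with 3 above and 4 below. The medians of the trophectoderm markers without AA and of the primitive endoderm markers with AA turned above 0 too, to 0.24 and 0.22.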

How the data were processed

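RNA-seq was carried out on 4 libraries of LF2 ESCs, 1 per condition, grouped from the sample titles and treatments. According to the study's methods, single-end reads were freed of duplicates and aligned with TopHat2 (the submitters' processing notes name mm10), and FPKM values were estimated with Cufflinks2. The 2 deposited tables, 1 without and 1 with AA, hold FPKM by the authors for 11033 coding sequence groups; 2 columns are headed as log10 but hold linear FPKM. Their columns of fold change, test statistic, p-value, q-value and significance call were not used. Sequencing depth was not given in the sources used here.

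Here, 207 groups with a failed estimate were left out and FPKM was summed per gene. Differences are log2 of the ratio of FPKM + 1 (pseudocount 1). A gene entered a comparison with at least 1 FPKM in either library and was called at 2-fold. No test was run. Whole reads were sought among 1822 low genes of 1 group (under 3 FPKM), within 0.0005 reads or a relative 1e-05, and came out whole for 879 of them (48.2%). Tested on simulated data, the search gave back the true reads of 1790 of 1795 genes. All 200 genes given a 4-fold change in GSK-J4 against DMSO without AA were called. These changes were given only to genes above the levels of the weak members, so calls among low genes were not tried.

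The members and the lists were chosen with earlier results of these data known. Named genes are the members, the highest and lowest of each list in GSK-J4 against DMSO without AA, any called gene of the 2-cell programme list, and the 3 genes nearest to each member. *Eif1ad*, *Eif1ax*, *Eif1*, *Pou5f1* and *Col1a1* were named outside this rule, after their values were seen. Alternatives were pseudocounts of 0.1 and 5, other filters, median centring, upper quartile and equal total scaling, a 1.5-fold threshold, and the highest coding sequence group alone. Computations used Python 3.11.15 with scipy 1.17.1, pandas 2.3.3 and numpy 2.4.6, and plots matplotlib 3.10.9.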

Additional observations from a re-analysis of the deposited data

Results flagged for a closer look

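In 6 of the 9 genes a difference had opposite signs in the 2 arms of the other treatment. The share of all genes with such a change was not computed, so the count is no result about the members. With 1 library per condition the difference between the arms was not tested. The values are the GSK-J4 difference with AA minus that without AA, as log2 of FPKM + 1. The sign of the AA difference was positive in DMSO and negative in GSK-J4 for *Dux* (-0.67), *Tcstv3* (-0.50) and *Usp17la* (-0.19), where the AA difference of *Dux* in DMSO was only 0.01. For *Usp17lb* (-0.41) both the AA and the GSK-J4 difference changed sign. For *Usp17lc* (0.36) and *Zfp352* (-0.24) the GSK-J4 difference changed sign, and that of *Zfp352* with AA was only -0.02. For comparison, 291 of the 9363 genes at the floor in either GSK-J4 comparison had a value as low as that of *Dux* or lower, and the median was 0.03.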

How the results depend on the processing

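A change of pseudocount, filter or threshold cannot change the sign of a difference, and each gene had a single coding sequence group. Under median centring, upper quartile scaling and equal totals, which can, the median over the 9 genes kept its sign. It has no counting error of its own. With a pseudocount of 0.1 it was 0.53 in GSK-J4 against DMSO without AA, 0.20 with AA, 0.083 in AA against PBS in DMSO and -0.27 in GSK-J4, and with a pseudocount of 5 it was 0.10, 0.028, 0.013 and -0.054. Centred on the median of all genes, the first 3 were 0.47, 0.25 and 0.089, and with equal totals 0.49, 0.23 and 0.069. Upper quartile scaling moved the one with AA to 0.20. The number of genes called also changed. In GSK-J4 against DMSO without AA, 1 gene was called higher, 0 with a pseudocount of 5 or when 1 FPKM was asked of both libraries, and 2, *Dux* and *Tcstv3*, with equal totals or a 1.5-fold threshold, which also gave 1 lower, *Eif1a*. With AA that threshold gave 1 lower against 0, again *Eif1a*. In AA against PBS in GSK-J4, 1 gene, *Dux*, was lower against 0 with a pseudocount of 0.1 or a 1.5-fold threshold. The pseudocount set the size of the *Dux* difference without AA, from 0.38 to 2.14. Under centring and scaling, all 9 genes kept their sign in GSK-J4 against DMSO without AA and in AA against PBS in GSK-J4. In the other 2 comparisons 7 of 9 did. No paired fit was run, and with 1 library per condition none could be left out. Low levels limit what these libraries can show: the smallest whole read number of *Dux* was 25.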
